A study of Homo sapiens with 6 samples.

Results

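Acute-phase proteins are plasma and secreted proteins whose output rises during infection or tissue damage, mainly in the liver under the cytokines IL-6 and IL-1, which act through STAT3, C/EBP factors and NF-κB. Epithelial and tumor cells make several of them too, together with complement proteins and proteins that starve or bind microbes. The genes described here are 9 such genes of the 23228 gene symbols counted: the serum amyloid A genes SAA1, SAA2 and SAA4, the lipocalin LCN2, the complement genes C3 and CFB, the pentraxin PTX3, and the calprotectin genes S100A8 and S100A9. They were taken by symbol, and the group was chosen with the read counts of this same comparison already known. Their levels and log2 fold changes (log2FC) are therefore given as a description, with no p-value, and how many of them passed the call made over all genes is stated once with nothing read from it.

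The libraries came from MDA-MB-231 cells, a human triple negative breast cancer (TNBC) line, carrying either a control non-targeted shRNA (3 replicates) or a PELP1 shRNA (3 replicates, PELP1-KD cells). PELP1 is a coregulator of nuclear receptors and other transcription factors. Both groups were made by stable lentiviral delivery under puromycin selection and grown in RPMI medium with serum, and the knockdown came from 1 shRNA construct, so that an effect of that construct on other transcripts cannot be told apart from the loss of PELP1. Nothing in the labels says whether the replicates came from separate cultures, so any p-value measures the spread between these libraries, which may be technical. Reads on genes numbered 17304864, 23083404 and 18004958 in the control libraries and 19186990, 20972223 and 23132102 in the knockdown libraries.

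PELP1 itself had 968, 1274 and 1069 reads in the 3 control libraries and 557, 637 and 712 in the 3 knockdown libraries, a log2FC of -0.97 (standard error 0.055, adjusted p = 1.48e-11, edgeR's quasi-likelihood test). The groups did not overlap, and the exact two-sided permutation test gave its smallest possible p of 0.1. The line's own markers were present: VIM, the mesenchymal filament gene, had the most reads of them, with 2221 ± 116 CPM (n = 3, SD; CPM is the count scaled to the library size) in the control cells and 1922 ± 11.2 in PELP1-KD cells. The hormone receptor genes ESR1 and PGR and the epithelial cadherin gene CDH1 were at 0 to 4 reads in every library. Of the list for the line's identity, 7 genes were tested, with 4 called lower in PELP1-KD cells and 0 higher. The 4 lower ones were those listed as high in the line: VIM, CD44, AXL and LGALS1 (log2FC -0.21, -0.55, -0.13 and -0.28). The other 3, EPCAM, GATA3 and ERBB2, were listed as low or not amplified and were not called. Over all tested genes, 24.2% were lower and 22.7% higher. Control replicate 1 stood somewhat apart from the other controls. The chi-square of its counts against theirs, per degree of freedom, was 3.74 and 3.99, against 1.46 between control replicates 2 and 3. Several results that rest on control replicate 1 are given without it as well.

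A question that comes before the levels is what a read on a serum amyloid A gene can tell. SAA1 and SAA2 lie near each other on chromosome 11 and encode near-identical plasma apolipoproteins, the acute-phase serum amyloid A. In the GENCODE annotation of GRCh38 (the counts were made on hg19, so all coordinates here come from the annotation and not from the counting), SAA1 spans 18266174 to 18269977 on the plus strand and SAA2 spans 18239223 to 18248643 on the minus strand. Their coding sequences are 366 bases each and differ at 11 bases, an identity of 97.0%. Reads were 50 bases long, and a read that aligned to both genes equally well was counted on neither. Of 219 stretches of 50 bases that lie within a single coding exon, 89 are the same in both genes. The first pair below is such a stretch, from the 2nd coding exon, and the second pair is the stretch with the most differences, 7 bases, in the 3rd coding exon, where capitals mark the differing bases. They are shown because, by the GRCh38 sequences, they separate the reads that could be counted on one gene from those that could not.
SAA1 chr11:18269195-18269244 (plus strand): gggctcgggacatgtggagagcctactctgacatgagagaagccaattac
SAA2 chr11:18245999-18246048 (minus strand): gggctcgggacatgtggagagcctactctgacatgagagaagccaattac
SAA1 chr11:18269741-18269790 (plus strand): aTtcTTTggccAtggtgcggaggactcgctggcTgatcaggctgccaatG
SAA2 chr11:18245442-18245491 (minus strand): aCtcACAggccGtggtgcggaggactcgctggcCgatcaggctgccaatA
Over whole transcripts, 402 of the 862 stretches of 50 bases in SAA1 (46.6%) also occur in SAA2. Reads from such stretches were left out of both counts wherever they aligned equally well to both genes on hg19, which was not checked.

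Of the 6 members with enough counts, SAA1 had the largest difference and SAA2 the next. The reads on SAA1 were 2654, 3740 and 2900 in the control libraries and 9869, 11215 and 12169 in the knockdown libraries. Scaled to library size this is 162 ± 4.10 CPM (n = 3, SD) against 516 ± 9.71 CPM (n = 3, SD), a log2FC of 1.68 (standard error 0.032). All 3 knockdown libraries lay far above all 3 control libraries, and the spread within each group was small beside the gap. For SAA2 the reads were 935, 1156 and 908 in the control libraries and 3045, 3208 and 3581 in the knockdown libraries. Its level went from 52.4 ± 2.48 CPM (n = 3, SD) to 153 ± 3.00 CPM (n = 3, SD), with a log2FC of 1.55 (standard error 0.045). The 2 paralogs thus differed between the groups by about the same factor, and again no library of one group reached the other. With the reads of both genes summed as if they were 1 gene, the log2FC was 1.64.

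**Figure D1:**
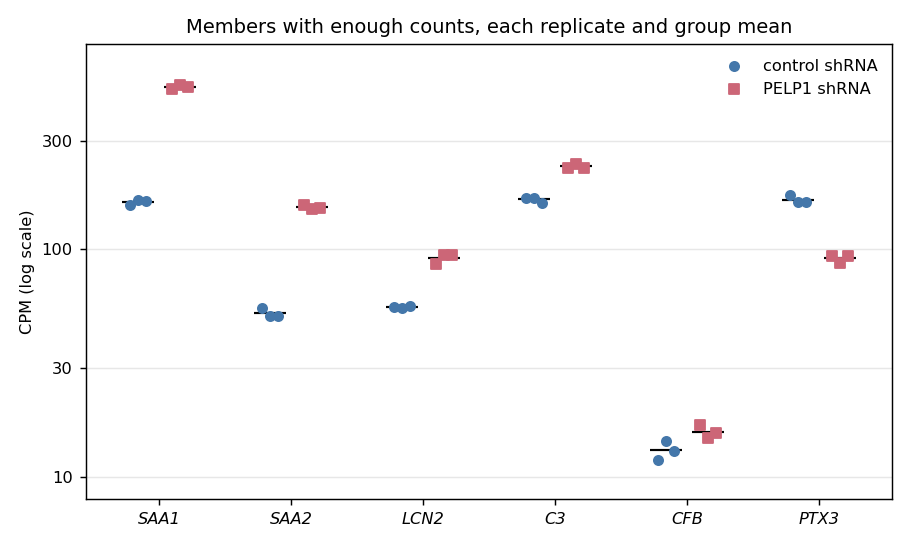
Level of the 6 members with enough counts in each library, in CPM on a log axis, with circles for control shRNA, squares for PELP1 shRNA and a black line at each group mean (n = 3). SAA1 and SAA2 are highest above their controls, PTX3 is the one gene below its controls, and the 2 groups of CFB almost touch (14.4 CPM in the highest control, 14.8 CPM in the lowest knockdown library).

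The share of SAA1 among the reads of the pair asks whether the balance of the paralogs moved with their sum. It is a share of counted reads, and reads from shared or overlapping stretches may be missing to a different extent for each gene. SAA1 took 73.9%, 76.4% and 76.2% of the SAA1 and SAA2 reads in the control libraries and 76.4%, 77.8% and 77.3% in the knockdown libraries. The exact Clopper-Pearson 95% interval for counting error alone was 72.5% to 75.4% in control replicate 1 and 75.7% to 77.2% in knockdown replicate 1. The group means were 75.5% ± 1.35 (SD, n = 3) and 77.1% ± 0.676 (SD, n = 3), 1.65 percentage points apart. That distance was close to the spread between the controls, and 0.875 points when control replicate 1, the lowest of the 6, was left out.

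**Figure D2:**
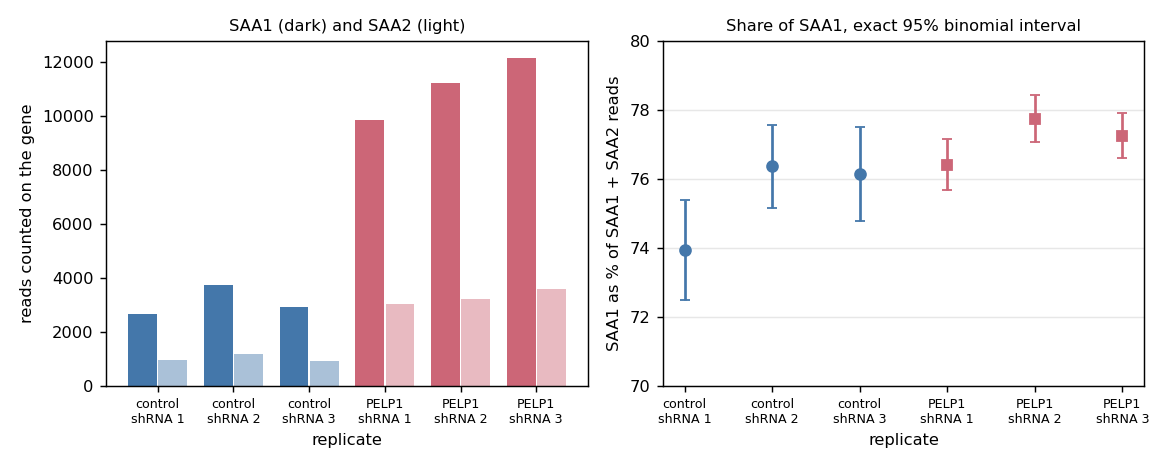
Left, reads counted on SAA1 (dark bars) and SAA2 (light bars) in each library; right, SAA1 as a percentage of the reads of both genes, with exact 95% binomial intervals, on an axis that starts at 70%. Both genes stand higher in the 3 PELP1 shRNA libraries, while the share stays between 73.9% and 77.8%.

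SAA4, the constitutive serum amyloid A gene, is next to SAA2 on the minus strand (18231349 to 18236893). It was barely detected, with 0, 2 and 1 reads in the control libraries and 4, 5 and 8 in the knockdown libraries, and it did not pass the filter on low counts. The knockdown libraries held 17 reads against 3, a ratio of 5.05 after scaling with a 95% counting interval of 1.46 to 26.9. Of its exon bases, 65.5% are also part of the readthrough gene SAA2-SAA4 on the same strand, and a read that falls on 2 annotated genes is tallied as ambiguous by such counting. SAA2-SAA4 was listed with 0 reads in all 6 libraries. How much of the SAA4 signal was lost this way was not tested.

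Per kilobase of exon (RPKM, CPM divided by the annotated exon length in kilobases), levels can be set side by side across genes, with a limit. The lengths include stretches whose reads may not have been counted. In the GRCh38 annotation, 46.6% of the 50-base stretches of SAA1 and 18.2% of those of SAA2 also occur elsewhere, against 0.0% for LCN2 and PTX3. For CFB, 41.4% of the stretches overlap another gene, and for SAA2 9.9%, against 0.2% for SAA1. The levels and ranks of SAA1, SAA2 and CFB can therefore be understated, by an amount that was not tested. SAA1 stood at 203 ± 5.15 RPKM (n = 3, SD) in the control cells, rank 123 of 11311 tested genes with a length, and at 649 ± 12.2 RPKM (n = 3, SD) in PELP1-KD cells, rank 16. It was the most abundant of the 9 transcripts in both groups. In the control cells PTX3 followed with 85.3 RPKM, then LCN2 with 35.0, SAA2 with 23.5, C3 with 20.0 and CFB with 2.62. In PELP1-KD cells the order was SAA1, SAA2 with 68.7 RPKM, LCN2 with 57.3, PTX3 with 47.2, C3 with 27.8 and CFB with 3.15. Neighbours in both orders were farther apart than their SDs. By exon length, SAA2 was below LCN2 in the control cells and above it in PELP1-KD cells, and PTX3 was above LCN2 and then below it. The place of SAA2 depends on the length used, since its annotated exons sum to 2227 bases and its coding part to 366. By coding length SAA2 stood at 143 in the control cells, already above LCN2 at 93.1, and beside PTX3 at 145, within the SD of 6.77. In PELP1-KD cells it stood at 418, second to SAA1, with LCN2 at 153 and PTX3 at 80.1. The exchange of SAA2 and LCN2 is thus absent by coding length, and that of PTX3 and LCN2 is present by both lengths.

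LCN2 encodes neutrophil gelatinase-associated lipocalin, a secreted protein that binds bacterial siderophores and so withholds iron. The gene lies on chromosome 9 from 128149071 to 128153455. Its reads were 944, 1255 and 1005 in the control libraries and 1677, 2013 and 2216 in the knockdown libraries. This is 55.9 ± 0.690 CPM (n = 3, SD) against 91.5 ± 4.75 CPM (n = 3, SD), a log2FC of 0.71 (standard error 0.049). The 3 control libraries were almost level, and the lowest knockdown library, replicate 1 at 86.0 CPM, was still well above them.

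PTX3 encodes a long pentraxin, a soluble pattern recognition protein made locally by many cell types in response to IL-1 and TNF. It lies on chromosome 3 from 157436789 to 157443628. Here it was the single member with a lower level after PELP1 knockdown. The reads were 2926, 3661 and 2883 in the control libraries and 1827, 1863 and 2200 in the knockdown libraries. The level went from 165 ± 6.54 CPM (n = 3, SD) to 91.5 ± 3.63 CPM (n = 3, SD), with a log2FC of -0.85 (standard error 0.042). Every knockdown library was below every control library by a margin many times the spread.

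Complement is a cascade of plasma proteins that tags surfaces for uptake or lysis. C3 is its central component, and CFB (factor B) supplies the protease of the alternative pathway. C3 is on chromosome 19 (6677704 to 6730562, minus strand), and its reads were 2859, 3838 and 2854 in the control libraries and 4453, 5088 and 5355 in the knockdown libraries. Its mean was 166 ± 4.76 CPM (n = 3, SD) in control and 231 ± 6.08 CPM (n = 3, SD) in PELP1-KD cells, with a log2FC of 0.48 (standard error 0.036) and no overlap of the groups. CFB is on chromosome 6 (31945650 to 31952084). It had 201, 327 and 231 reads in the control libraries and 329, 315 and 367 in the knockdown libraries. Its mean was 13.1 ± 1.25 CPM (n = 3, SD) in control and 15.7 ± 1.06 CPM (n = 3, SD) in PELP1-KD cells, which is a log2FC of 0.25 (standard error 0.089). The gap between the nearest libraries of the 2 groups was smaller than either SD, and without control replicate 1, the lowest library, the log2FC of CFB was 0.19. Other annotated genes on its strand, C2 and AL645922.1, cover 2249 of its 4997 exon bases.

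S100A8 and S100A9 encode the subunits of calprotectin, the zinc- and manganese-binding protein of neutrophils and inflamed epithelium. Neither had a read in any of the 6 libraries. A count of 0 allows up to 3 reads, which is 0.127 to 0.177 CPM depending on the library. No fold can be given for them.

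In all, 6 of the 9 members passed the filter on low counts, SAA4 did not, and S100A8 and S100A9 had no reads. Of these 6, 5 were higher and 1 was lower in PELP1-KD cells past an adjusted p of 0.05, where 22.7% of the 12796 tested genes were called higher and 24.2% lower (2904 and 3103 genes; 3817 and 2418 when scaled by library totals alone). SAA1 and SAA2 were also above a log2FC of 1, as were 1.90% of all tested genes, and none of the members was below -1, where 1.34% of tested genes were. The groups did not overlap for any of the 6, with 27.0% of all tested genes fully above and 28.0% fully below. The median log2FC was 0.60 over the 6 members and 0.00 over all tested genes. Nothing is read from these counts, since the genes were chosen on this comparison. The call of CFB was lost with DESeq2 and without each of 4 single libraries.

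The promoters of the members are shown for the 3 genes in which a searched motif was found and which had enough reads: LCN2, which was higher, CFB, whose groups almost touched, and PTX3, which was lower. Each is the 250 bases before the RefSeq start site on GRCh38.p14, on the plus strand. By the GENCODE coordinates given above, the LCN2 and CFB stretches lie inside the annotated gene and the PTX3 stretch partly so. The start sites of the RefSeq table and the GENCODE gene limits thus differ, and distances below are to the RefSeq start site. The table used held a promoter for 6 of the 9 members; SAA1, SAA2 and C3 had none. Capitals mark matches, on either strand, to the NF-κB consensus, to the C/EBP letters TTGCNNAA and to the STAT letters TTCNNNGAA.
LCN2 chr9:128149203-128149452: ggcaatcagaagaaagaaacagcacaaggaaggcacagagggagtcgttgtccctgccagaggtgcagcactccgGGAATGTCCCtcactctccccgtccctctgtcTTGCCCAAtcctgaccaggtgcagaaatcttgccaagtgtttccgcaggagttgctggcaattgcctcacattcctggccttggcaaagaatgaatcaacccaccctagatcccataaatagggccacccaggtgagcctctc
CFB chr6:31945845-31946094: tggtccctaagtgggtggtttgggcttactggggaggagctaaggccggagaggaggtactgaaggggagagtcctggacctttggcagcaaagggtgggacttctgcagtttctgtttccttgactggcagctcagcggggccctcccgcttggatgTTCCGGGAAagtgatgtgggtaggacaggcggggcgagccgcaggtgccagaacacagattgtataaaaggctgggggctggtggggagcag
PTX3 chr3:157436600-157436849: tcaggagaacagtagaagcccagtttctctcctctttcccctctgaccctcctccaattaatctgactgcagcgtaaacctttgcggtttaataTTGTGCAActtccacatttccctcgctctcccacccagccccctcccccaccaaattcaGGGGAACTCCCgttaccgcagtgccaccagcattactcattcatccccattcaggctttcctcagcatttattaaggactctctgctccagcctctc
In LCN2 an NF-κB match begins 175 bases and a C/EBP match 143 bases before the start site. In PTX3 the NF-κB match reads on both strands and the 2 readings overlap, at 97 and 96 bases before the start, with a C/EBP match at 156. CFB has 1 STAT match, at 92 bases before the start. SAA4 had 3 C/EBP matches, and S100A8 and S100A9 had none of the 3 motifs. Of 35116 RefSeq promoters of 300 bases, 5.9% hold the NF-κB consensus, 10.5% the C/EBP letters and 7.7% the STAT letters. A match is a description of letters and shows no bound factor. The gene with a lower level and a gene with a higher level carried the same pair of motifs.

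Other genes of the same pathways were taken from lists written from general knowledge, though with earlier results of these data known, so that they are not independent of the data. The genes named from each list are mainly those with the largest called log2FC. All were tested in edgeR's quasi-likelihood fit over all 12796 genes with Benjamini-Hochberg adjustment. Among 28 other acute-phase plasma proteins, 8 had no read and 6 were tested; 3 rose and 2 fell, with a median log2FC of 0.21. The classic liver products CRP and LBP had 0 reads in every library. HP and ORM1 had none either, but 606 of 5060 and 357 of 851 of their 50-base stretches occur elsewhere, mainly in HPR and ORM2. Reads that did not align uniquely were not counted. VWF, the platelet-binding von Willebrand factor, had 1, 6 and 0 reads in control and 12, 20 and 16 in PELP1-KD cells (log2FC 2.56, standard error 0.55). It passed the filter on low counts through the knockdown libraries alone, so no p-value is given for it. With at least 10 counts in every library it was not tested, and 2 genes of the list rose. FN1, fibronectin, rose with a log2FC of 0.38 (adjusted p = 1.08e-08). FTH1, the heavy chain of the iron store ferritin, rose by 0.43 (adjusted p = 2.95e-05), and by 0.30 without control replicate 1, whose reads on it were low, 4792 against 8569 and 6840; of its 50-base stretches 19.9% also occur elsewhere, mainly in pseudogenes. SERPINA1, the antiprotease alpha-1 antitrypsin, fell by 0.35 on the log2 scale (adjusted p = 4.89e-06), from 74.1 ± 1.71 CPM to 58.3 ± 1.89 CPM (n = 3, SD). MT2A, a metal-binding metallothionein, fell by 0.49 (adjusted p = 1.14e-10). Over all tested genes 22.7% rose and 24.2% fell, and nothing particular to the list is read from its counts. Of the 28 genes, 20 had at most 10 reads in all libraries together.

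The complement list held 40 further genes, of which 16 had no read and 14 were tested. Of these, 4 rose, 4 fell and 6 did not pass, where 22.7% of all tested genes rose and 24.2% fell. These counts are near those shares, and nothing particular to the list is read from them. Of the genes that rose, C1R, a protease subunit of C1, went from 73, 80 and 58 reads to 147, 143 and 142 (log2FC 0.87, standard error 0.14, adjusted p = 3.09e-05). CLU, the fluid-phase inhibitor clusterin, rose by 0.55 (adjusted p = 2.53e-07) and COLEC12, a scavenger receptor collectin, by 0.68 (adjusted p = 0.0127), a call that was lost with DESeq2 and without control replicate 2 or knockdown replicate 2. COLEC10, the liver collectin, had 0, 1 and 1 reads against 17, 23 and 17. That is 2 reads against 57, a ratio of 25.4 with a counting interval of 6.72 to 215. COLEC10 passed the filter on low counts through the knockdown libraries alone, so no p-value is given for it. With at least 10 counts in every library it was not tested, and 3 genes of the list rose.

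Among the complement genes that fell were 3 membrane-bound inhibitors of the cascade. CD59, which blocks the membrane attack complex, went from 361 ± 4.04 CPM to 260 ± 1.60 CPM (log2FC -0.47, adjusted p = 8.33e-11). CD55, which speeds the decay of convertases, and CD46, a cofactor for cleavage of C3b, fell by 0.38 and 0.34 on the log2 scale (adjusted p = 1.97e-08 and 6.01e-07). Another inhibitor, CLU, was among the genes that rose. The components C1QA, C4A, C6, C7 and C9 had no read. However, 94.1% of the 50-base stretches of C4A also occur elsewhere, mainly in its copy C4B, and reads that did not align uniquely were not counted.

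**Figure D3:**
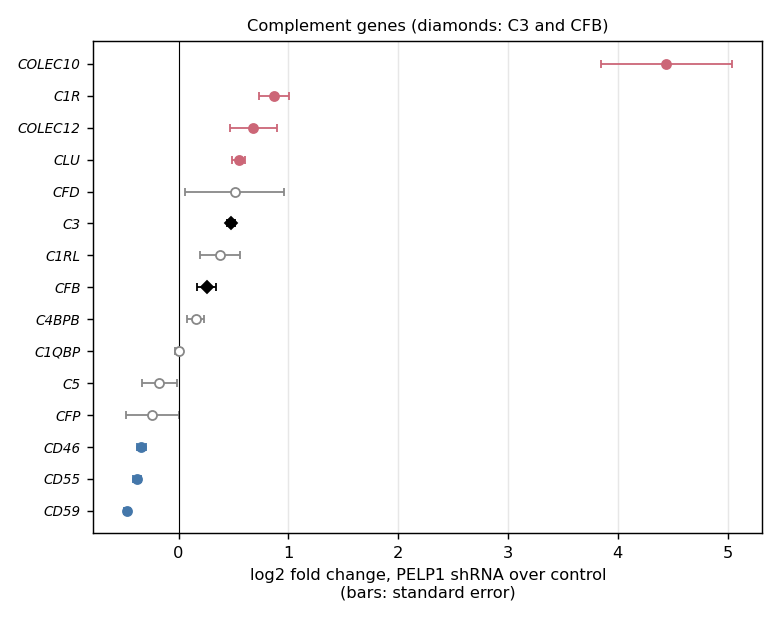
Log2FC (PELP1 shRNA over control shRNA) with its standard error for 13 of the 14 tested complement genes and, as black diamonds, the members C3 and CFB. Filled red circles rose and filled blue circles fell past an adjusted p of 0.05, and open circles did not pass. COLEC10, which passed the filter on low counts through the knockdown libraries alone, lies at the upper end. It is drawn as a filled red circle, but no p-value is given for it. CD46, CD55 and CD59 lie together on the lower side.

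Secreted antimicrobial proteins were mostly undetected. Of 26 genes, 17 had no read, including the defensin gene DEFB1 and the cathelicidin gene CAMP, and 2 were tested. The defensin genes DEFB4A and DEFB103A also had no read, but 233 of the 331 and 469 of the 469 stretches of 50 bases in them occur in another gene. Reads that did not align uniquely were not counted. Both tested genes fell, where 24.2% of all tested genes did, and nothing is read from this count. DMBT1, a mucosal scavenger protein, fell by 1.12 on the log2 scale (69, 94 and 63 reads against 32, 51 and 33, adjusted p = 5.41e-05). LGALS3, galectin-3, fell by 0.20 (adjusted p = 0.00158). LTF, lactoferrin, and SLPI, an antiprotease, each had 5 reads or fewer in every library. LCN2 was thus expressed while most of this list had no read.

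S100A8 and S100A9 having no read, the list of other S100 genes covers the rest of this calcium-binding family. Of 16 genes, 10 were tested, of which 2 rose, 2 fell and 6 did not pass. Over all tested genes 22.7% rose and 24.2% fell, and nothing particular to the list is read from its counts. The list and the 6 that did not pass include S100PBP (log2FC 0.02), which encodes a binding partner of S100P and is not itself an S100 gene. S100A6 had the most reads, at 1029 ± 29.3 CPM (n = 3, SD) in control and 680 ± 18.4 CPM (n = 3, SD) in PELP1-KD cells (log2FC -0.60, adjusted p = 1.02e-12). S100A4, known as metastasin for its link to cell motility, fell from 583, 820 and 603 reads to 311, 315 and 382 (log2FC -1.16, standard error 0.067, adjusted p = 1.99e-11). S100A2 rose by 0.58 (adjusted p = 1.86e-06) and S100A16 by 0.39 (adjusted p = 4.03e-08). The neutrophil gene S100A12 and the skin gene S100A7 had no read.

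Of the signalling genes known to drive the acute phase, some rose and some fell. Over all tested genes, 22.7% rose and 24.2% fell. In the IL-6 family list, 22 of 24 genes were tested, 9 rose and 5 fell, with a median log2FC of -0.04. The share that rose was above that of all tested genes. Nothing particular to the list is read from these counts, since it was written with earlier results known. IL11, a cytokine that signals through the same receptor chain as IL-6, rose from 1838, 2792 and 2081 reads to 5087, 5717 and 6173 (116 ± 7.14 CPM to 264 ± 3.72 CPM, SD, n = 3; log2FC 1.18, adjusted p = 4.41e-15). IL6 had 565, 712 and 516 reads in control and 885, 900 and 1018 in PELP1-KD cells (log2FC 0.48, standard error 0.061, adjusted p = 1.90e-06). LIFR, the receptor of leukemia inhibitory factor, rose by 0.42 (adjusted p = 8.42e-06). These 3 genes were higher, while the receptor chain they have in common was not.

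IL6ST, which encodes that shared chain gp130, fell from 381 ± 22.2 CPM to 266 ± 9.56 CPM (SD, n = 3; log2FC -0.52, adjusted p = 8.81e-10), and JAK1, the kinase bound to it, fell by 0.32 (adjusted p = 1.53e-06). SOCS1, a feedback inhibitor, had a log2FC of -0.52 at the edge of the threshold (adjusted p = 0.0461) with overlapping groups, and it was called in 5 of 13 alternative fits. Without control replicate 1 its log2FC was -0.69 (adjusted p = 0.00479). STAT3, the transcription factor that IL-6 activates, was named for its role after its value was seen, and rose by 0.16 (adjusted p = 0.000849). CEBPB, a C/EBP factor of the acute phase, had 53.4 ± 12.4 CPM in control and 70.5 ± 2.21 CPM in PELP1-KD cells (SD, n = 3; log2FC 0.39, adjusted p = 0.00242), and 0.22 without control replicate 1, which had 661 reads against 1363 and 1087; the call was lost with DESeq2.

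In the list for IL-1, TNF, IL-17 and NF-κB, 32 of 36 genes were tested, 8 rose and 10 fell, none beyond a log2FC of 1, with a median of 0.04. These counts are near the shares over all tested genes, and nothing particular to the list is read from them. IL1R1, the signalling receptor of IL-1, had 318, 389 and 333 reads in the control libraries and 655, 737 and 804 in the knockdown libraries (log2FC 0.91, standard error 0.065, adjusted p = 5.04e-10). TNFRSF1B, the second TNF receptor, and IL17RC, a chain of the IL-17 receptor, rose by 0.39 and 0.30 (adjusted p = 8.63e-06 and 0.000313). IL1B, a ligand of IL1R1, fell from 40.3 ± 2.39 CPM to 25.6 ± 0.791 CPM (SD, n = 3; log2FC -0.65, adjusted p = 3.39e-08). IKBKB, a kinase that releases NF-κB, and TRAF6, the ubiquitin ligase upstream of it, both fell by 0.36 (adjusted p = 2.67e-05 and 0.00305). TNF was at 2 to 5 reads in every library. IL1A, the other ligand of IL1R1, named after its value was seen, had 32.7 ± 1.42 CPM in control and 36.4 ± 2.54 CPM in PELP1-KD cells (SD, n = 3; log2FC 0.15, adjusted p = 0.0520), and it was called higher in 5 of 13 alternative fits. Without control replicate 1, the log2FC of IL1A was 0.17 (adjusted p = 0.0267). IL1R1 and IL1B thus moved in opposite directions, and IL1A did not pass in the main fit.

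**Figure D4:**
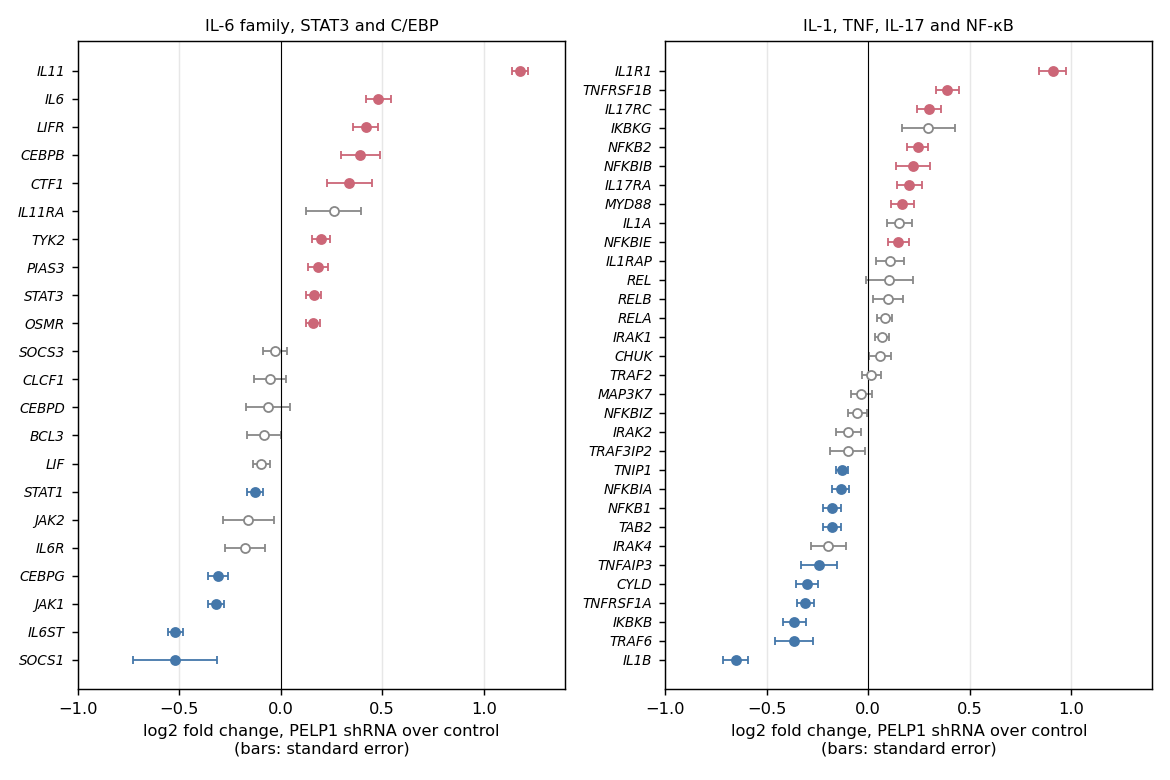
Log2FC (PELP1 shRNA over control shRNA) with its standard error for 22 tested genes of the IL-6 family list (left) and 32 of the IL-1, TNF, IL-17 and NF-κB list (right); filled red circles rose and filled blue circles fell past an adjusted p of 0.05, open circles did not pass. IL11 (1.18) and IL1R1 (0.91) are at the top, and IL6ST and SOCS1 (both -0.52) and IL1B (-0.65) at the bottom.

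Receptors and partners through which the member proteins act were mostly low. Of 24 genes, 10 were tested, 2 rose and 2 fell, where 22.7% of all tested genes rose and 24.2% fell. Nothing particular to the list is read from these counts. C3AR1, the receptor of the C3a fragment, had 1, 6 and 3 reads in control and 19, 18 and 17 in PELP1-KD cells (log2FC 2.23, standard error 0.44). Its level was still under 1 CPM on average. It passed the filter on low counts through the knockdown libraries alone, so no p-value is given for it. With at least 10 counts in every library it was not tested, and 1 gene of the list rose. ITGB2, the beta chain of the leukocyte integrins that serve as complement receptors, rose from 104, 124 and 105 reads to 172, 232 and 243 (log2FC 0.79, adjusted p = 8.06e-06). Its alpha partners ITGAM and ITGAX had 4 reads or fewer in every library. TLR4, a receptor proposed for serum amyloid A and calprotectin, fell by 0.28 (adjusted p = 0.0206), a call lost with DESeq2, with library totals, and without control replicate 1 or knockdown replicate 2. BSG, basigin, fell by 0.17 (adjusted p = 6.71e-05). The LCN2 receptor genes SLC22A17 and LRP2 had 1 read and no read in the 6 libraries together.

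Markers of other cell types that make these proteins were measured too. Of 12 hepatocyte markers, 2 had no read (HNF4A and CYP3A4) and none had more than 5 reads in a library. Their summed level was 0.296, 0.616 and 0.507 CPM in the control libraries and 0.462, 1.22 and 0.382 CPM in the knockdown libraries, with APOA1 taking the most reads. Of 12 myeloid and neutrophil markers, 6 had no read, among them the leukocyte gene PTPRC and the neutrophil genes MPO, ELANE and CSF3R. The summed level of that list was 121, 124 and 121 CPM in control and 94.0, 101 and 98.9 CPM in PELP1-KD cells, nearly all of it CD68, a lysosomal gene that many cell types express. CD68 fell by 0.33 on the log2 scale (adjusted p = 1.70e-06), and 74.3% of its 50-base stretches overlap another annotated gene. The part of these cell types in the levels of the members was not tested. In bulk RNA, fewer cells that express a gene and less RNA per cell cannot be told apart.

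Across the 6 libraries, the log2 CPM of SAA1 was compared with that of 9419 tested genes of at least 10 CPM on average. Since the 2 groups differ so much, any gene with a clean difference correlates with SAA1, and 177 genes reached a Pearson r of 0.99. That number was 296 without control replicate 1, and between 212 and 296 with any 1 library left out. The 5 most like it were TGFBI, BST2, LTBP2, KRT81 and ZNF542, with r between 0.9991 and 0.9996. TGFBI is a secreted matrix protein, and it had 7026, 9691 and 7768 reads in the control libraries and 18214, 20677 and 22040 in the knockdown libraries (log2FC 1.15). BST2, an antiviral membrane protein known as tetherin, had 510, 683 and 558 reads in the control libraries and 1485, 1666 and 1866 in the knockdown libraries. LTBP2, a matrix protein of elastic fibres, had a log2FC of 2.05, larger than that of SAA1, while KRT81, a hair keratin, had 0.92 and the zinc finger gene ZNF542 had 1.23. These values follow from the 2 groups and are a description of likeness in level alone.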

How the data were processed

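RNA-seq counts of 3 control shRNA and 3 PELP1 shRNA libraries were used. The authors deposited whole-number counts of reads per gene symbol, without normalization, 1 table per library. The submitters' processing notes name bcl2fastq, TopHat2, SAMtools, HTSeq and the build hg19, with no versions. The gene annotation and the counting mode are not given in the sources used here, nor is the strand setting, so reads of overlapping genes on opposite strands may be mixed. Libraries were made with a stranded mRNA kit and sequenced as single reads of 50 bases. Between 32.5% and 32.9% of the tallied reads were not unique and 0.657% to 0.688% ambiguous; neither kind was placed on a gene, which lowers the counts of paralogs. The closing lines with these totals stayed out of the library sizes.

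Counts were scaled by TMM and tested in edgeR 4.0.16 (R 4.3.3) by the quasi-likelihood test after filterByExpr with a minimum of 10 counts, with Benjamini-Hochberg adjustment and a threshold of 0.05. TMM factors ranged from 0.978 to 1.02. The standard error of a log2FC is its size divided by the square root of F, and log2 CPM used a prior count of 2. Counting floors of 3 reads and counting intervals cover counting error only, since PCR copies could not be recognised without molecular identifiers. Exon lengths and coordinates came from GENCODE 29 on GRCh38 and promoters from the RefSeq table on GRCh38.p14; exon lengths matched 11311 of the 12796 tested genes by symbol. Sequences shared between genes were counted in GENCODE transcripts. Figures were drawn with Python 3.11.15 and matplotlib 3.10.9. The fit was also run on simulated counts, whose outcome is not reported here, and no result rests on it.

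The members and gene lists were chosen with earlier results of these data known. Named were the 9 members, PELP1, the called genes of each list with a log2FC beyond 1 and, besides these, the 3 with the largest log2FC in each direction, and the 5 genes most like SAA1. The names of genes at 0 were added as examples. The values of 1 named gene of the complement list are not reported here. The alternatives were RLE size factors, library totals, DESeq2 1.42.0, limma voom 3.58.1, all genes unfiltered, at least 10 counts in every library, a block on the replicate number, each library left out, a log2FC beyond 1 as well, and SAA1 and SAA2 summed. RPKM by the length of RefSeq proteins was not run, and GENCODE coding lengths, chosen after seeing the data, were used in its place.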

Additional observations from a re-analysis of the deposited data

How the results depend on the processing

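The 6 tested members kept their direction in all 13 alternative fits. The log2FC of SAA1 ranged from 1.65 to 1.72, SAA2 from 1.52 to 1.60, LCN2 from 0.69 to 0.76, C3 from 0.45 to 0.53, CFB from 0.19 to 0.33 and PTX3 from -0.88 to -0.80. No result was reversed. With a log2FC beyond 1 required as well, 243 genes rose and 171 fell, and the lists kept 1 higher and 0 lower (acute-phase, IL-6 family, receptors), 1 and 1 (complement), 0 and 1 (antimicrobial, other S100) and 0 and 0 (IL-1 and NF-κB). Scaling by library totals gave 3817 higher and 2418 lower genes in place of 2904 and 3103, and left 3 lower genes in the IL-6 list and 1 lower receptor; DESeq2 left 5 higher genes in the IL-1 list and 1 lower receptor; and at least 10 counts in every library left 1 higher receptor. Leaving out each library in turn gave 3 to 6 lower genes in the IL-6 list, lowest without PELP1-KD replicate 1, and 212 to 296 genes with r of at least 0.99 to SAA1, highest without control replicate 1. The cause of these changes was not tested. Deviations of same-numbered libraries from their group means had correlations of 0.0388, 0.0653 and -0.0784, so the numbers do not pair them; a block on the replicate number gave 3140 genes that rose and 3335 that fell, and a log2FC of 1.68 for SAA1. Depth limits SAA4, VWF, COLEC10 and C3AR1, all under 1 CPM in the mean of each group. VWF, COLEC10 and C3AR1 passed the filter on low counts through the knockdown libraries alone. They are the higher genes that the acute-phase, complement and receptor lists kept beyond a log2FC of 1.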
